A study of Mus musculus with 18 samples.

Results

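Lactotrophs are the pituitary cells that make and release prolactin, and the genes described here are 6 that mark them or act on them: Prl, Drd2, Esr1, Angpt1, Agtr1b and Gal. They were chosen by gene symbol, and each was read by 1 of the 19572 probe sets that carry a gene symbol, so all 6 were measured. RNA of pituitary and skin was hybridised to 18 Clariom S arrays, an Affymetrix platform for mouse transcripts. In each tissue 3 arrays came from lncKO mice, 3 from miR-205 KO mice and 3 from wild-type (wt) mice. The lncKO mice are knockouts of MIR205HG, a long noncoding RNA gene, and the miR-205 KO mice are knockouts of the microRNA encoded at that locus. All samples are labelled as female C57BL/6 mice, 5 to 6 weeks old. The labels do not say how the alleles were made, whether any cell type was targeted, or whether the mice of a group were separate animals, and the protocol for extraction, which describes ear tissue, stands beside the pituitary samples too.

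Prolactin is a peptide hormone that drives lactation and acts on many tissues through a receptor that signals by Jak2 and Stat5. Lactotrophs release it without a stimulus and are held back by dopamine from the hypothalamus, which acts on the D2 receptor encoded by Drd2. Oestrogen, through the receptor encoded by Esr1, raises prolactin synthesis and lactotroph growth, and the neuropeptide galanin, encoded by Gal, acts on lactotrophs as a local growth factor. Agtr1b encodes a rodent angiotensin II receptor of the pituitary and adrenal, and Angpt1 encodes angiopoietin 1, a ligand of the endothelial receptor Tek that stabilises vessels.

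The mature sequences of the microRNA missing in the miR-205 KO mice are shown because no probe set named here measures it. They are from RefSeq (GRCm38.p6), at chr1:193507503-193507524 for the 5p arm and chr1:193507467-193507488 for the 3p arm, both on the minus strand, with the seed (bases 2 to 8) in capitals. The arms do not share a seed.
mmu-miR-205-5p: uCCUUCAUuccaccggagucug
mmu-miR-205-3p: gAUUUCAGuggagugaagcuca

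For 5 of the 6 genes RefSeq held a promoter. The 250 bases before the start are shown for Prl (chr13:27057320-27057569, plus strand) and Drd2 (chr9:49340153-49340402, plus strand), the genes with the largest differences between tissues. Capitals mark matches, on either strand, to the TATA box motif TATAAA, to TGACG, which is the core of the cyclic AMP response element, and to GGTCA, which nuclear receptors such as the oestrogen receptor recognise as a core.
Prl promoter: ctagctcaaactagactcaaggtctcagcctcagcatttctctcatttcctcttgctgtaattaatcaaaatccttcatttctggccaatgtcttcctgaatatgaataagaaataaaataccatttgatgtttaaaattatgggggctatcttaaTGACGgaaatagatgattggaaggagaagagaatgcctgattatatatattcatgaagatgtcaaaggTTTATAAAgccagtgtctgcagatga
Drd2 promoter: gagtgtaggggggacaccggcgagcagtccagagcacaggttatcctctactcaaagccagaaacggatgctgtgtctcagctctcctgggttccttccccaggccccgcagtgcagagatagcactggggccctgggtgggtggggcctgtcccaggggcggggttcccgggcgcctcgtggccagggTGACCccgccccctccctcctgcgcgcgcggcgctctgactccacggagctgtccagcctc
The Prl window held overlapping matches to TATAAA on both strands and 1 to TGACG, 94 bases before the start, and none to GGTCA. The Drd2 window held 1 match to GGTCA, on the minus strand. Of 32851 promoter windows of this length, 12.4% held TATAAA, 17.8% held TGACG and 35.2% held GGTCA.

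Array medians were 84 to 91 in pituitary and 82 to 96 in skin (intensity), and 24.6% to 25.3% of probe sets in pituitary and 22.8% to 24.2% in skin read 16 or less, which is used here as a mark of readings near background. Genes of the Y chromosome were read in pituitary, where Kdm5d lay between 172 and 318, Eif2s3y between 559 and 1640 and Uty between 1869 and 2339, but not in skin, where each lay at 13 or below. These readings go against the label female for the pituitary samples, and sex and tissue cannot be told apart in any comparison of tissues below. Eif2s3y also differed by genotype, with 559 to 927 in lncKO, 1225 to 1278 in miR-205 KO and 1535 to 1640 in wt pituitary, and was lower in lncKO (log2 -1.08 ± 0.19, adjusted p = 0.0283). That call was lost with a floor at 16 (0.0848), with only the groups compared in the fit (0.0825) and without wt 10, 11 or 12 or lncKO 13 or 15 (0.0611 to 0.109), and its part in the results below was not tested. In whole tissue, fewer cells of a type and less RNA per cell cannot be told apart.

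Prl, Drd2 and Esr1 were read at high levels in pituitary and near background or low in skin, while Angpt1 was read in both. In wt samples 5 of the 6 genes passed the test as higher in pituitary than in skin, in a comparison where 25.7% of all probe sets were higher and 52.1% differed either way. The median log2 difference was 4.66 over the 6 genes and -0.01 over all probe sets. Prl was 14.88 ± 0.38 higher on the log2 scale in wt pituitary than in wt skin (± SE, n = 3 per group, limma, adjusted p = 9.23e-18), Drd2 9.35 ± 0.27 higher (adjusted p = 4.76e-17) and Esr1 4.97 ± 0.34 higher (adjusted p = 7.85e-11). Angpt1 was 20.5-fold higher (log2 difference 4.36 ± 0.25, adjusted p = 5.91e-12). Gal was 1.09 ± 0.19 higher (adjusted p = 4.67e-05), but both groups lay near background, and with intensities floored at 16 its difference was 0.03 and did not pass (adjusted p = 0.245). Since skin readings of Prl and Drd2 were at or near background, their differences depend on the floor and were 14.82 and 8.98 with intensities floored at 16. Agtr1b did not pass (0.28 ± 0.27, adjusted p = 0.416).

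**Figure D1:**
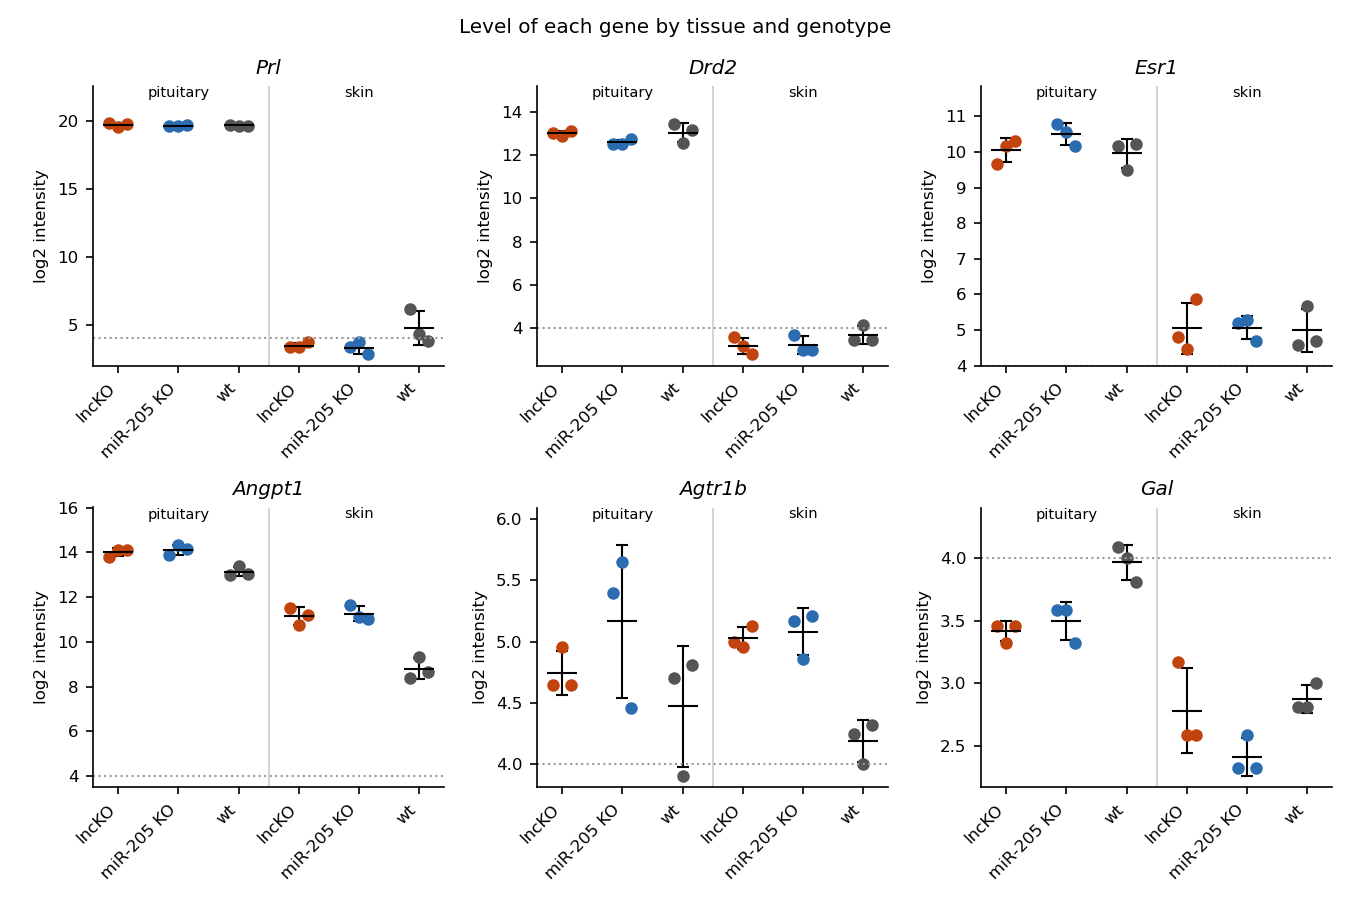
Level of each of the 6 genes on every array, as log2 intensity, by tissue and genotype (points are arrays, lines are the mean, bars are ± SD, n = 3 per group; the dotted line is an intensity of 16). Prl, Drd2 and Esr1 separate the tissues, Angpt1 separates the tissues and, in each, both knockouts from wt, and Gal lies near background throughout.

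Prl is the hormone gene itself. In pituitary it read 911911, 776355 and 877202 in lncKO arrays, 798683, 810344 and 836965 in miR-205 KO arrays, and 844370, 803845 and 816882 in wt arrays. The 3 groups overlapped, and the highest and the lowest reading were both from lncKO. The log2 fold change was 0.05 ± 0.15 in lncKO (95% interval -0.28 to 0.39, adjusted p = 0.925) and -0.01 ± 0.15 in miR-205 KO (-0.34 to 0.32, adjusted p = 0.996). Prl stood at 93.6% to 100% of the highest intensity on its array, and at most 1 named probe set, that of growth hormone (Gh), was above it. The table marks no saturated values, so a difference hidden at the top of the scale cannot be judged.

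In skin Prl read 10, 10 and 13 in lncKO arrays and 10, 13 and 7 in miR-205 KO arrays, against 72, 20 and 14 in wt arrays. All 6 knockout readings were at or below 16, and so was 1 of the wt readings. The call in miR-205 KO skin (-1.49 ± 0.47, adjusted p = 0.0454, where 10% of all probe sets fell) was lost under 4 of 7 alternative settings: with intensities floored at 16 (-0.83, adjusted p = 0.387), median centring (0.0531), a variance trend and robust estimation (0.0527) and only the groups compared in the fit (0.0875). It was also lost without wt 1 (-0.79, adjusted p = 0.0970), wt 2 (0.0516), miR-205 KO 7 (0.112), 8 (0.0615) or 9 (0.147). In lncKO skin the change was -1.32 ± 0.47 (adjusted p = 0.0745) and, without wt 1, -0.62 (0.190), and it passed without wt 3 (-1.80, adjusted p = 0.0216) and in the fit of all 18 arrays (adjusted p = 0.0176). Wt skin 1, the array with the highest Prl, also read highest for Gh (2501, against 29 and 76 in the other wt arrays and 7 to 15 in the 6 knockout arrays) and for Cga (44). Of the 5 somatotroph markers, 3 were lower in lncKO skin and 4 in miR-205 KO skin, where 15.4% and 16.8% of all probe sets differed either way. Their summed intensities were 94 to 137, 92 to 95 and, in wt skin, 204 to 2642. Among the markers called, Ghsr and Gpr101 lay near background even in wt skin (mean log2 3.98 and 4.12). The part of these readings in the Prl difference was not tested.

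Drd2, the receptor by which dopamine restrains lactotrophs, read 8261, 7587 and 8965 in lncKO pituitary, 5872, 5894 and 6791 in miR-205 KO pituitary, and 11000, 6015 and 9054 in wt pituitary. The miR-205 KO arrays were all below the lncKO arrays, while the wt arrays spanned the lncKO readings and overlapped the miR-205 KO readings. Neither knockout passed the test against wt (lncKO -0.03 ± 0.22, 95% interval -0.50 to 0.44, adjusted p = 0.975; miR-205 KO -0.45 ± 0.22, -0.92 to 0.02, adjusted p = 0.690). The lncKO arrays lay 0.42 ± 0.22 above the miR-205 KO arrays, which did not pass either, and 7.49% of all probe sets separate these groups in that direction. In skin Drd2 read between 7 and 18 on every array, near background.

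Esr1, the oestrogen receptor gene, read 810, 1158 and 1277 in lncKO pituitary, 1755, 1511 and 1143 in miR-205 KO pituitary, and 1141, 720 and 1197 in wt pituitary. All 3 groups overlapped. The log2 fold changes were 0.09 ± 0.25 in lncKO (95% interval -0.46 to 0.65, adjusted p = 0.922) and 0.54 ± 0.25 in miR-205 KO (-0.01 to 1.09, adjusted p = 0.677). In skin Esr1 read 22 to 58 in lncKO, 26 to 39 in miR-205 KO and 24 to 51 in wt, with log2 fold changes of 0.06 ± 0.37 (adjusted p = 0.938) and 0.08 in miR-205 KO (adjusted p = 0.908).

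Angpt1 read highest in the knockouts of both tissues. In skin the readings were 2952, 1709 and 2389 in lncKO arrays and 3214, 2214 and 2092 in miR-205 KO arrays, against 338, 634 and 402 in wt arrays. Every knockout array was above every wt array, an order that 13.3% of all probe sets showed in lncKO skin and 14.9% in miR-205 KO skin. Angpt1 rose 5.19-fold in lncKO skin (log2 2.38 ± 0.29, limma, adjusted p = 0.000418) and 5.57-fold in miR-205 KO skin (2.48 ± 0.29, adjusted p = 0.000325), where 6.21% and 6.79% of all probe sets rose and 15.4% and 16.8% differed either way. With each of the 6 arrays left out in turn these changes stayed at 2.18 or more in lncKO and 2.28 or more in miR-205 KO, and no call was lost.

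In pituitary Angpt1 read 14347, 17690 and 17699 in lncKO arrays and 15058, 20729 and 18212 in miR-205 KO arrays, against 8123, 10692 and 8506 in wt arrays. Again the knockout arrays were all above the wt arrays, an order that 8.84% of all probe sets showed in lncKO and 5.89% in miR-205 KO. The fold change was 1.83 in lncKO (log2 0.87 ± 0.19, adjusted p = 0.0637) and 1.97 in miR-205 KO (0.98 ± 0.19, adjusted p = 0.145), and neither passed the threshold. With a variance trend and robust estimation both passed (adjusted p = 0.00636 in lncKO and 0.00835 in miR-205 KO). The highest adjusted p under another setting was 0.160 in lncKO and 0.288 in miR-205 KO. With 1 array left out neither passed in any fit, at an adjusted p of up to 0.228 in lncKO and 0.450 in miR-205 KO. Over all probe sets 0.7% differed in lncKO and 0.107% in miR-205 KO, and none of the 6 genes passed in either. At an unadjusted p under 0.05, 2 of the 6 would pass in lncKO (Angpt1 and Gal), where 12.5% of all probe sets would, and 3 in miR-205 KO (Angpt1, Gal and Agtr1b), where 7.47% would.

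The knockout effect on Angpt1 was smaller in pituitary than in skin. The log2 fold change in pituitary minus that in skin was -1.51 ± 0.36 for lncKO (adjusted p = 0.0126) and -1.50 ± 0.36 for miR-205 KO (adjusted p = 0.0130). Both knockouts were compared with the same wt arrays, so their effects share those readings. Between the knockouts Angpt1 did not pass in either tissue (lncKO minus miR-205 KO, -0.11 ± 0.19 in pituitary, 95% interval -0.53 to 0.30, and -0.10 ± 0.29 in skin, -0.73 to 0.53). No other member passed the test of a difference in knockout effect between tissues, in which 9.25% of all probe sets passed for lncKO (3.37% lower) and 9.95% for miR-205 KO (3.69% lower). Between the knockouts 0 of the 6 genes passed in pituitary, where 0.291% of all probe sets passed, and 0 of 6 in skin, where 0% passed and 3.25% had an unadjusted p under 0.05.

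**Figure D2:**
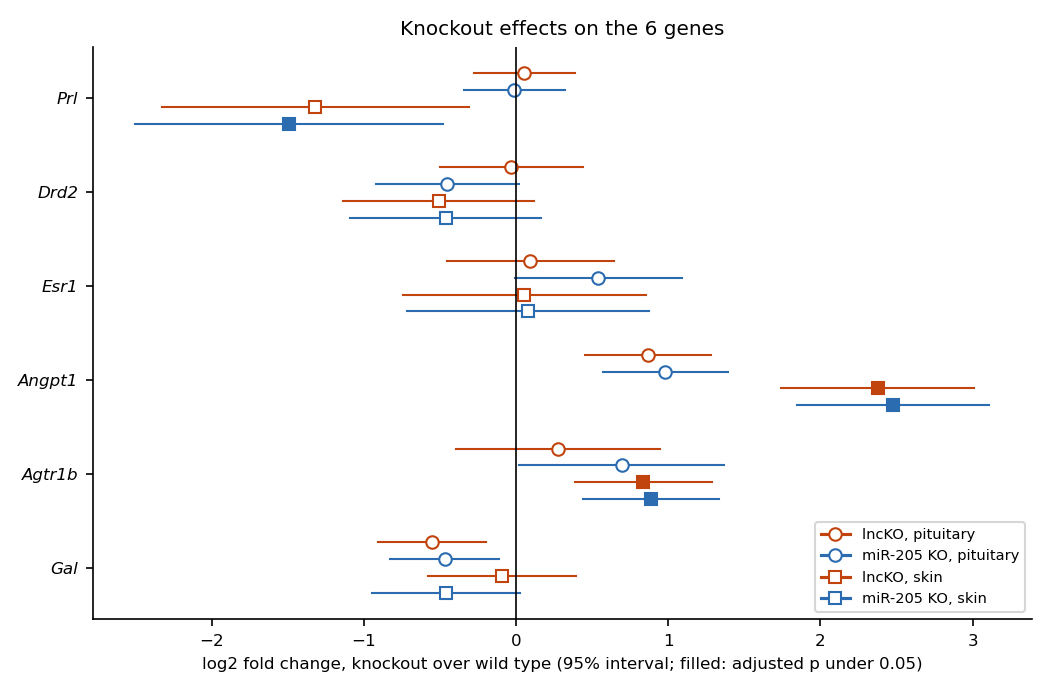
Log2 fold change of the 6 genes, knockout over wild type, in pituitary (circles) and skin (squares), with 95% intervals from limma (n = 3 arrays per group; filled points have an adjusted p under 0.05). Angpt1 lies furthest to the right in skin, Prl in skin furthest to the left, and the pituitary values of Prl, Drd2 and Esr1 have intervals that include 0.

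Some markers of several cell types moved with the genotype in skin, and their part in the rise of Angpt1 was not tested. Over all probe sets 6.21% rose in lncKO skin and 6.79% in miR-205 KO skin, and 15.4% and 16.8% differed either way. The short marker lists were not tested against these shares. Adipocyte markers rose for 3 of 5 genes in both knockouts (summed intensity 145874 to 221604 in lncKO, 144541 to 255555 in miR-205 KO and 73674 to 122251 in wt), and cartilage markers for 3 of 5 (41383 to 76777, 51965 to 65667 and 17151 to 29165). Of 4 fibroblast markers, only Dpt rose (summed intensity 295780 to 396797, 327415 to 402231 and 155197 to 195037). The sums add linear intensities and so follow bright genes, here Dpt (mean log2 17.71 in lncKO, 17.88 in miR-205 KO and 15.72 in wt). Of 5 endothelial markers Cldn5 rose, by 2.43 ± 0.30 in lncKO and 2.27 ± 0.30 in miR-205 KO, and 0 of 5 mural cell markers passed. Of 5 keratinocyte markers only Krt10 rose, by 0.94 ± 0.20 in lncKO (adjusted p = 0.00832) and 0.97 ± 0.20 in miR-205 KO (0.00670), and the summed intensity was 896607 to 983082, 918078 to 1054595 and, in wt, 566472 to 702489. That sum follows its brightest gene, Krt10 (mean log2 19.31 in lncKO, 19.34 in miR-205 KO and 18.37 in wt). Of 5 hypothalamic neuron markers 3 fell in both, Oxt, Slc17a6 and Snap25 (summed intensity 103 to 120, 90 to 109 and 275 to 344). Slc17a6 and Snap25 lay near background, with mean log2 2.87 and 2.99 in lncKO, 2.90 each in miR-205 KO, and 4.21 and 3.98 in wt. Skeletal muscle markers rose for 1 of 5 genes in lncKO and 2 of 5 in miR-205 KO, and hair follicle shaft markers fell for 1 of 4 and 2 of 4. The hair genes called, Hoxc13 in lncKO and Krt31 and Krt33a in miR-205 KO, had knockout means near background (log2 2.73, 3.54 and 3.32).

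In pituitary 2 of 5 corticotroph markers, Tbx19 and Crhr1, and 1 of 5 markers of stem and folliculostellate cells, Sox2, rose in lncKO, where 0.7% of all probe sets differed. In miR-205 KO 0 of the marker genes passed, and 0.107% of all probe sets did. Each of the 3 calls was lost without 3 or more of the 6 arrays, wt 12 among them (0.0569 to 0.154), with a floor at 16 (0.0595 to 0.117) and with only the groups compared in the fit (0.0534 to 0.0700), and that of Crhr1 also in the fit of all 18 arrays (0.114). The summed level of the stem and folliculostellate markers was 6272 to 7398 in lncKO, 4589 to 5264 in miR-205 KO and 3774 to 4418 in wt pituitary.

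Agtr1b, the angiotensin receptor gene, rose in both knockout skins at low levels. It read 32, 31 and 35 in lncKO skin and 36, 29 and 37 in miR-205 KO skin, against 19, 16 and 20 in wt skin. The knockout arrays were all above the wt arrays, as for 13.3% of all probe sets in lncKO skin and 14.9% in miR-205 KO skin. The rise was 1.79-fold in lncKO (0.84 ± 0.21, adjusted p = 0.0173) and 1.85-fold in miR-205 KO (0.89 ± 0.21, adjusted p = 0.0124), but it was lost without wt 2 (adjusted p = 0.0630) or lncKO 6 (0.0584) in lncKO skin and without miR-205 KO 7 (0.0517) in miR-205 KO skin. In pituitary Agtr1b read 25, 31 and 25 in lncKO, 42, 50 and 22 in miR-205 KO, and 26, 15 and 28 in wt, and the groups overlapped. Its close relative Agtr1a, which the table reads with a probe set of its own, read 2353 to 3250 in lncKO, 2690 to 4372 in miR-205 KO and 3179 to 3510 in wt pituitary. In skin Agtr1a read 84 to 128 in lncKO, 102 to 143 in miR-205 KO and 151 to 186 in wt, with both knockouts below wt and neither passing the test (-0.72 ± 0.23, adjusted p = 0.0550, and -0.48 ± 0.23, adjusted p = 0.177). Whether the probes separate these near-identical genes was not given in the sources used here.

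Gal, the neuropeptide gene, was near background everywhere, with 10 to 17 in pituitary and 5 to 9 in skin. In pituitary it read 11, 10 and 11 in lncKO and 12, 12 and 10 in miR-205 KO, against 17, 16 and 14 in wt. All 6 knockout readings and 2 of the 3 wt readings were at or below 16, where readings have no order. The fold changes did not pass (lncKO -0.55 ± 0.16, adjusted p = 0.173; miR-205 KO -0.47 ± 0.16, adjusted p = 0.559), and each was -0.03 with a floor at 16.

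Among the other genes tied to prolactin, receptors for hormones that release or inhibit it were the only pituitary list with a call, 2 of 19 measured in lncKO, both lower. Over all probe sets 0.7% differed in lncKO pituitary. Sstr2 and Sstr5 encode somatostatin receptors, which inhibit hormone release. Sstr2 read 44 to 103 in lncKO, 139 to 216 in miR-205 KO and 261 to 447 in wt pituitary, and fell by 2.34 ± 0.31 on the log2 scale in lncKO (adjusted p = 0.00840). Sstr5 read 93 to 210, 330 to 585 and 484 to 674, and fell by 1.82 ± 0.31 (adjusted p = 0.0204). Sstr2 did not pass in miR-205 KO (-1.09 ± 0.31, adjusted p = 0.420). The call for Sstr2 was lost without wt 12 (adjusted p = 0.0505) and with a floor at 16 (0.0848), and that for Sstr5 without wt 10, 11 or 12 or lncKO 13 (0.0502 to 0.0831), with a floor at 16 (0.131) and with only the groups compared in the fit (0.0580).

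No gene of the other 9 lists passed in pituitary, and the ones with the smallest unadjusted p are given as values. In prolactin receptor signalling (9 genes), Cish, a suppressor of cytokine signalling, was -0.73 ± 0.23 in lncKO (adjusted p = 0.204) and Stat5a 0.36 ± 0.15. In D2 coupling (12), Gnai1, an inhibitory G protein gene, was 0.58 ± 0.25 in lncKO (adjusted p = 0.356). Among oestrogen partners and responsive genes (11), Pttg1, which encodes securin, read 687, 30 and 35 in miR-205 KO pituitary, against 1595, 1738 and 1618 in wt, a fold change of -4.20 ± 0.86 (adjusted p = 0.178), and 2086 to 2512 in lncKO. With 1 array left out the change was -5.67 (without miR-205 KO 16, adjusted p = 1.92e-07) to -3.41. Of these fits only that without miR-205 KO 16 passed, and their highest adjusted p was 0.519. Of 8 alternative settings 1 passed (adjusted p = 0.0343), and the highest adjusted p among them was 0.543. In the same list Ncoa3, a receptor coactivator, was 0.72 ± 0.23 in lncKO.

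In the angiopoietin list (8), Flt1, a receptor for vascular growth factor, was 0.75 ± 0.19 in lncKO (adjusted p = 0.100) and 0.78 ± 0.19 in miR-205 KO (0.287). In the renin angiotensin list (8), Agtr2 was 0.61 ± 0.21 and Agt 0.45 ± 0.16 in miR-205 KO. Of the galanin list (5) the lowest p after Gal itself belonged to Spx, at -0.51 ± 0.27 in lncKO. Among other lactotroph markers (7) Edil3, a matrix protein gene, was -1.04 ± 0.33 in lncKO (adjusted p = 0.200) and Six6, a pituitary transcription factor, -0.37 ± 0.16 in miR-205 KO. In calcium and cAMP control (8), Gnaq was 0.43 ± 0.16 and Cacna1d -0.56 ± 0.21 in miR-205 KO, and in the prolactin gene family (23) Prl7b1 was 0.78 ± 0.23 (adjusted p = 0.446) and Prl6a1 0.66 ± 0.23, both near background. The lactotroph markers Six6, at 6523 to 10146, and Hepacam2, at 12446 to 22364, were present on every pituitary array, whereas F5 read 11 to 24.

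**Figure D3:**
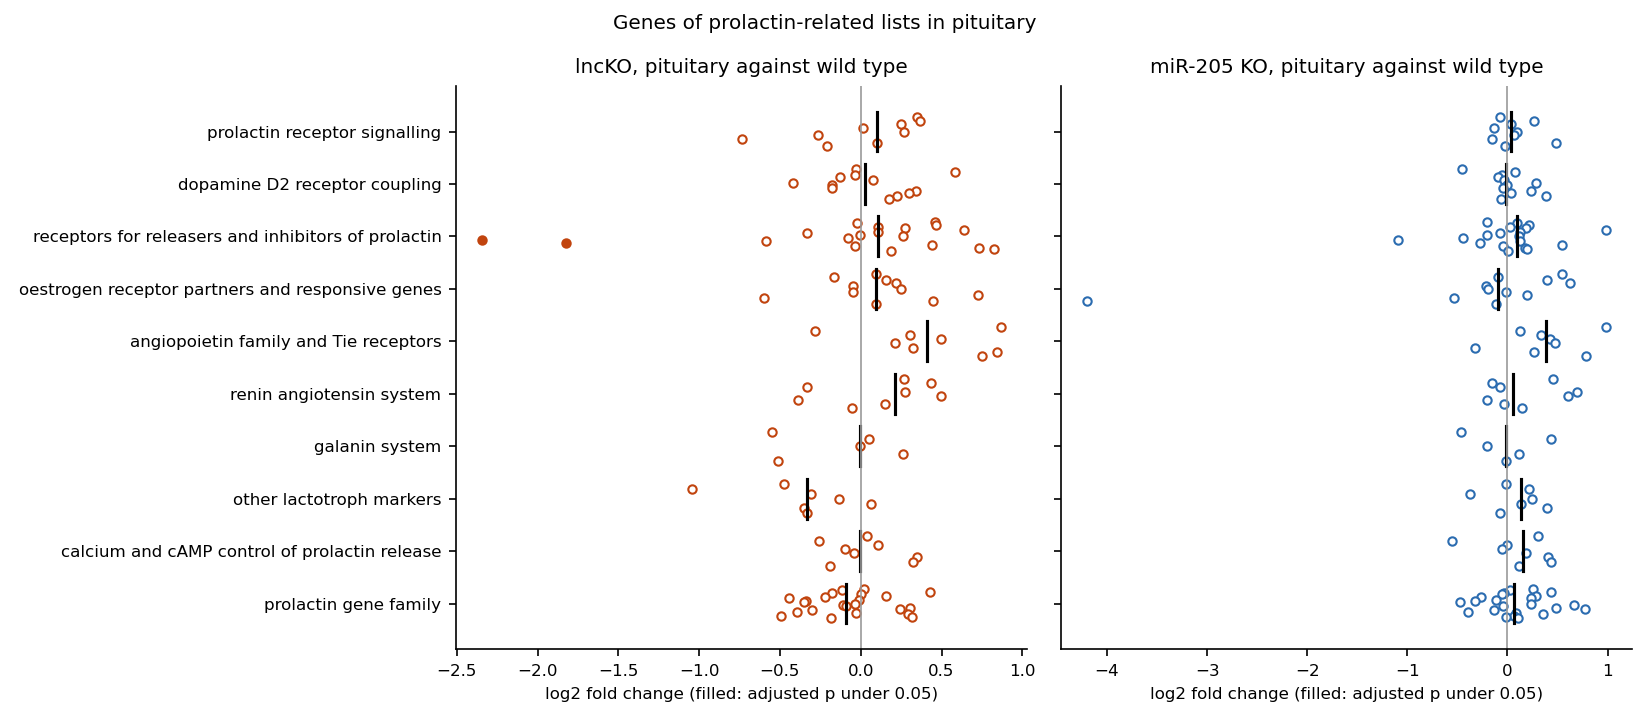
Log2 fold changes of the measured genes of the 10 lists in pituitary, lncKO over wild type (left) and miR-205 KO over wild type (right), with black marks at each list's median. Filled points passed the adjusted p of 0.05, and only Sstr2 and Sstr5 in lncKO did.

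In skin the same lists held more calls, against a background in which 15.4% of all probe sets differed in lncKO and 16.8% in miR-205 KO. Receptors for releasers and inhibitors changed for 4 of 19 genes in each knockout, among them Egfr, the epidermal growth factor receptor, which fell by 1.78 ± 0.21 in lncKO (adjusted p = 0.000284) and fell by 1.75 ± 0.21 in miR-205 KO (0.000331). Calcium and cAMP control had 3 genes lower in lncKO, and 3 lower and 1 higher in miR-205 KO, of 8. Of these Gna11, a G protein gene, fell by 1.20 ± 0.24 and fell by 1.19 ± 0.24. Of the 7 other lactotroph markers 1 rose and 1 fell in each knockout. Cilp, a cartilage matrix protein gene listed here among them, fell by 1.66 ± 0.27 (0.00212) and fell by 1.82 ± 0.27 (0.00124). Edil3 rose by 0.81 in lncKO (0.0432) and F5 by 1.04 in miR-205 KO (0.0497), both named after their values were seen. With 1 array left out the call of Edil3 was lost in 4 of 6 fits and that of F5 in 6 of 6. Galr2, a galanin receptor, rose by 1.40 ± 0.29 in lncKO (0.00712) and 1.06 ± 0.29 in miR-205 KO (0.0241), while the Gal reading itself was near background. The Galr2 call in miR-205 KO was lost without wt 1 or 2 or miR-205 KO 8 or 9 (0.0589 to 0.0897). It was also lost under 1 of 8 alternative settings (0.0773).

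In the angiopoietin list, Angpt4, a further ligand of Tek, rose with Angpt1 in skin, by 1.04 ± 0.29 in lncKO (adjusted p = 0.0305) and 1.23 ± 0.29 in miR-205 KO (0.0136). The call was lost without wt 1, wt 2, lncKO 4 or lncKO 5 in lncKO (0.0783 to 0.112) and without wt 2 or miR-205 KO 8 in miR-205 KO (0.0522 and 0.0542). It was also lost under 2 of 8 alternative settings in lncKO (up to 0.0934) and 1 of 8 in miR-205 KO (0.0572), a floor at 16 among them. Tek itself read 106 to 134 in lncKO skin, 112 to 159 in miR-205 KO skin and 58 to 169 in wt skin, and did not pass. Tie1, an orphan partner of Tek, fell by 1.02 ± 0.26 in miR-205 KO skin (0.0201). That call was lost without wt 2 (0.0774) or miR-205 KO 7 (0.0930) and under 1 of 8 alternative settings (0.0570). The miR-205 KO effect on Tie1 was 1.49 ± 0.35 higher in pituitary than in skin (adjusted p = 0.0120). Tie1 was named after its values were seen. Stat5a, which prolactin and other cytokine receptors activate, fell by 0.71 ± 0.22 in lncKO and fell by 0.70 ± 0.22 in miR-205 KO (0.0445 and 0.0443). The calls were lost under 4 of 8 alternative settings in lncKO (up to 0.105) and 2 of 8 in miR-205 KO (up to 0.0962). Median centring was among them (0.0733 and 0.0744). They were also lost without any array but lncKO 5 in lncKO (up to 0.154) and without each array in miR-205 KO (up to 0.115). Pttg1 fell by 2.56 ± 0.50 in miR-205 KO skin (adjusted p = 0.00520), with 471, 783 and 123 against 1645, 2078 and 2721 in wt, and read 1113 to 1394 in lncKO skin. Its call was lost with a floor at 16 (0.0541), and with 1 array left out the change was -3.13 (without miR-205 KO 8) to -1.79 (without miR-205 KO 9). Members of the prolactin family were called at 3 of 23 in each knockout, 1 higher and 2 lower. Over all probe sets 15.4% differed in lncKO skin and 16.8% in miR-205 KO skin. Under an alternative setting Prl8a1 shrank to -0.06 in both knockouts, and Prl8a2 to 0.11 in lncKO and 0.24 in miR-205 KO. Prl2c3, named after its values were seen, stayed at -0.72 or beyond in lncKO and -0.80 or beyond in miR-205 KO under the alternative settings. Its call was lost under 3 of 8 settings in lncKO and 1 of 8 in miR-205 KO. With 1 array left out it was lost in 4 of 6 fits in lncKO (up to 0.142) and 5 of 6 in miR-205 KO (up to 0.112). The smallest changes in those fits were -0.70 in lncKO and -0.74 in miR-205 KO.

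**Figure D4:**
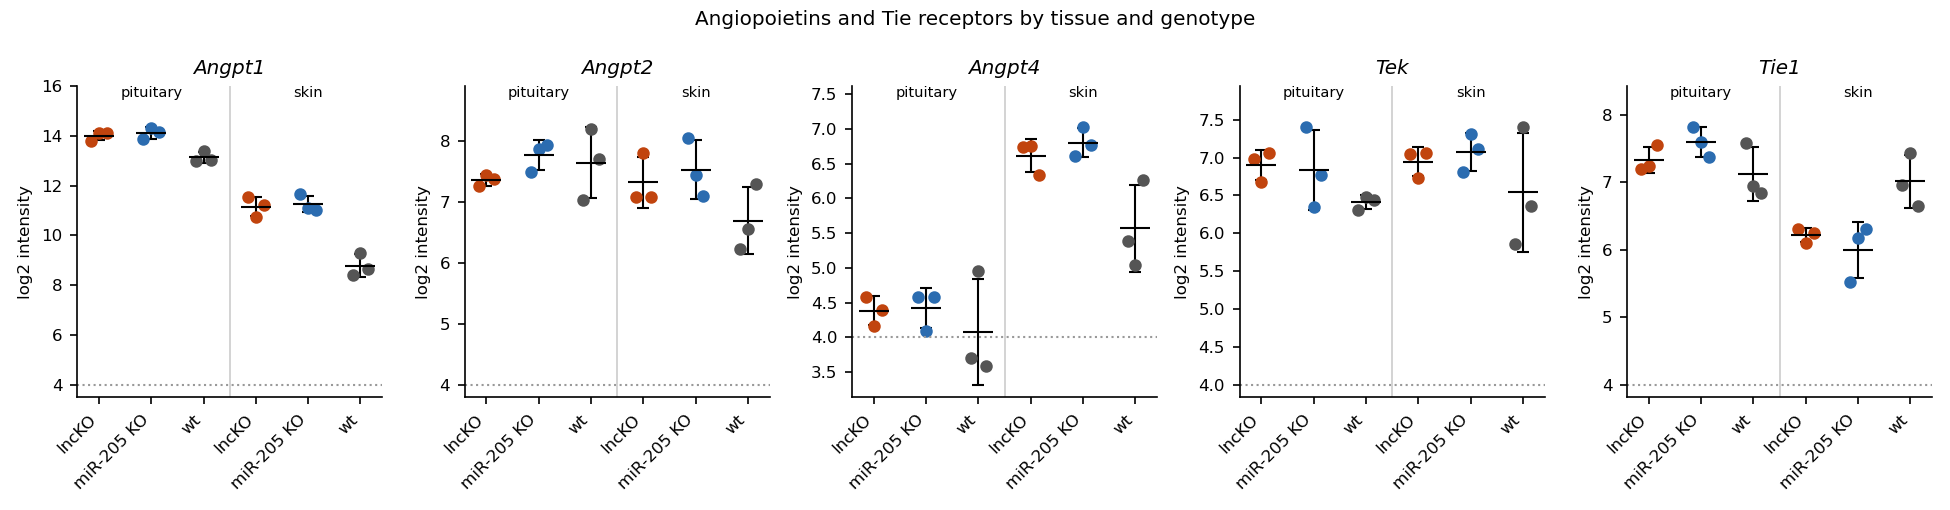
Log2 intensity of the angiopoietin genes Angpt1, Angpt2 and Angpt4 and of the receptors Tek and Tie1 on every array, by tissue and genotype (lines are means, bars ± SD, n = 3 per group; the dotted line is an intensity of 16). Every knockout array of Angpt1 lies above every wt array of its tissue, whereas Angpt2 in both pituitary knockouts overlaps wt.

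The genes whose pituitary pattern was most like that of each member are given as a description, as Pearson correlations of log2 intensity over the 9 pituitary arrays, which share their genotypes and total signal. Closest to Prl was Mtss2 (r = 0.947) and then Gh, the growth hormone gene (0.935). Drd2 was closest to H3c8 (0.922) and then Oacyl (0.909). Drd2 and Oacyl both stand in the marker list used here for melanotrophs, a further pituitary cell type, so Drd2 is not a reading of lactotrophs alone. Esr1 was closest to Lsr (0.961), Angpt1 to Mcph1 (0.971) and Agtr1b to Abcb10 (0.946). None is given for Gal, whose readings lay near background.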

How the data were processed

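RNA of 18 samples, 3 per tissue and genotype, was measured on 1 array each. The values deposited by the authors are intensities per probe set on a linear scale, per the file headers and values, in whole numbers from 4 to 1243875. How the background was treated, whether arrays were normalised and how probes were summarised is not given in the sources used here. Per the labels' protocols, RNA was extracted from frozen tissue with a column kit, amplified and labelled. The table has 22206 probe sets, of which 19572 carry 1 gene symbol and 2634 none, and the platform annotation named them.

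From these, intensities were log2 transformed, with no pseudocount and no further normalization, and limma 3.58.1 in R 4.3.3 was fitted (lmFit, eBayes, two-sided). The 9 arrays of a tissue entered 1 fit with a term per genotype, which left 6 residual degrees of freedom, and all 18 entered the fits across tissues. Adjusted p-values are Benjamini-Hochberg over the 19572 probe sets, with a threshold of 0.05. Fold changes have SEs, levels SDs. The number of arrays limits the precision, and as the labels do not name separate mice, the p-values may reflect technical spread between samples alone.

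The members and gene lists were chosen with earlier results of these data known. All 6 members are named, together with, in each list, up to 4 genes that passed in pituitary (where none passed, the 2 with the smallest unadjusted p) and up to 2 that passed in skin, and for likeness the closest genes (none for Gal, which lay near background) among 10801 probe sets with a mean pituitary log2 of at least 6. Alternatives were quantile normalization, median centring, a floor at 16, a filter on dim probe sets (over 16 on at least 3 arrays), a variance trend with robust estimation, other samples in the fit, all probe sets in the adjustment, and leaving out each array. The limma scripts were tested on simulated data. Promoters and microRNAs are from RefSeq tables of GRCm38.p6.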

Additional observations from a re-analysis of the deposited data

Results flagged for a closer look

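The Angpt1 response differed between tissues. The knockout effect on Angpt1, as the log2 fold change in pituitary minus that in skin, was -1.51 ± 0.36 for lncKO (limma, adjusted p = 0.0126) and -1.50 ± 0.36 for miR-205 KO (adjusted p = 0.0130), by an interaction term over all 18 arrays. Both were called under each of the 6 alternatives run and without each of the 12 arrays involved (lncKO -1.77 to -1.32, adjusted p 0.00411 to 0.0355; miR-205 KO -1.76 to -1.30, adjusted p 0.00453 to 0.0409). The wt Angpt1 level was 13.14 ± 0.21 in pituitary and 8.79 ± 0.47 in skin (SD, n = 3 each).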

How the results depend on the processing

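Over 783 log2 fold changes of the 6 genes under an alternative, 711 kept their direction and their side of the threshold, 13 lost a call, 6 gained one and 53 turned direction, none of them called in the main setting. The cause was not tested for any of these. With a variance trend and robust estimation, 1 of the 6 genes passed in lncKO pituitary and 1 in miR-205 KO pituitary, against 0 of 6. Leaving out 1 array gave 1 to 3 called members in lncKO skin and 1 to 3 in miR-205 KO skin, and 1 to 2 in the difference of each knockout effect between tissues. Small differences turned direction with quantile normalization: Prl in pituitary (lncKO -0.00628, miR-205 KO 0.0235, lncKO against miR-205 KO -0.0298), Gal in lncKO skin (0.10), the lncKO tissue difference of Esr1 (-0.00435) and the miR-205 KO tissue difference of Drd2 (-0.13). With median centring, the last pair were -0.0646 and -0.11, and Drd2 was -0.39 with a floor at 16. Leaving out 1 array gave, for Esr1, -0.14 to 0.29 in lncKO pituitary, -0.35 to 0.40 in lncKO skin, -0.12 to 0.42 in miR-205 KO skin, -0.43 to 0.27 between the skin knockouts, and -0.30 to 0.45 for the lncKO tissue difference. It gave, for Prl, -0.0302 to 0.00859 in miR-205 KO pituitary and -0.0631 to 0.38 between the skin knockouts, and for Gal, -0.29 to 0.00587 in lncKO skin and -0.0845 to 0.0820 for the miR-205 KO tissue difference. For Drd2 it gave -0.27 to 0.16 in lncKO pituitary, -0.24 to 0.19 between the skin knockouts and -0.23 to 0.25 for the miR-205 KO tissue difference, for Angpt1 -0.28 to 0.11 and for Agtr1b -0.16 to 0.0139 between the skin knockouts, -0.00659 to 0.44 in lncKO pituitary and -0.48 to 0.16 for the miR-205 KO tissue difference. Members under the filter on dim probe sets have no value there. No paired analysis was possible because no sample number recurs between groups. Values at or below 16, as for Gal and for Prl and Drd2 in skin, have no order.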
